A study of Mus musculus with 8 samples.

Results

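The difference between old and young bone marrow LSK cells was measured over both genotypes of an Asxl2 mouse series, using all 8 of its 8 libraries. LSK cells are sorted as lineage-negative, Sca1-positive and Kit-positive, a gate that holds blood stem cells and multipotent progenitors. The 4 old libraries came from mice over 1 year of age and the 4 young libraries from mice of 8 to 12 weeks. Each age held 2 wild-type (WT) mice and 2 Asxl2 knockout (KO) mice, and 1 mouse of each genotype and age was in each of 2 batches. The labels do not say how the knockout was made, give no strain, and name no treatment. Polyadenylated RNA was amplified with a low-input SMART-Seq kit, so every group shares that amplification. Libraries were chosen by their age label, and genotype and batch were terms of the model.

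Blood stem cells change with age in ways that are well described. The stem cell pool grows, output shifts from lymphoid cells toward myeloid cells and platelets, and single old stem cells give less blood when transplanted. Surface adhesion proteins and platelet genes are commonly reported among the transcripts that rise. Asxl2 encodes a chromatin protein that binds the deubiquitinase Bap1 and acts with Polycomb genes, and its loss is known to disturb stem cell function. LSK cells are a mixture, so in these bulk libraries fewer cells of a type and less RNA per cell cannot be told apart.

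Library totals ran from 45737972 to 80388500 estimated counts, and Asxl2 itself separated the genotypes in all libraries, at 23.0 to 30.8 TPM (a level per length, scaled to the same total in each library) in WT and 4.63 to 5.63 TPM in KO. Across the gate's markers, Kit had a median of 145 TPM, Ly6a (Sca1) of 271 TPM and Cd34 of 778 TPM over the 8 libraries. The lineage genes Cd3e, Ms4a1, Ly6g and Adgre1 stayed under 5 TPM in every library, while Itgam reached 11.9 TPM. The 4 mice of an age came from 2 litters, each of 1 KO and 1 WT mouse in 1 batch, and the model treats them as independent, so p values measure the spread among mice and not among litters. Xist RNA, which is made from the inactive X chromosome of females, was at 3.61 and 3.33 TPM in the 2 old batch 1 mice and under 0.07 TPM elsewhere. In that litter the Y-linked genes Ddx3y, Eif2s3y, Kdm5d and Uty were at 0.0229 to 0.225, 0.6399 to 1.63, 1.88 to 2.02 and 2.06 to 2.51 TPM, against 35.01, 76.5, 9.13 and 17.3 TPM on average in young libraries. Sex therefore differed between that old litter and the other 3, and sex and age cannot be told apart in batch 1.

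Over both genotypes, edgeR's quasi-likelihood test called 3563 of 25543 genes at a Benjamini-Hochberg adjusted p under 0.05, or 13.9%. Of these, 1109 were higher in old cells (4.34% of the genes tested) and 2454 lower (9.61%). Among the 10063 protein-coding genes of at least 5 TPM in either age, 2421 were called (24.1%), with 133 higher (1.32%) and 2288 lower (22.7%). The median log2 change of these coding genes was -0.29, whereas the median of all genes tested was 0.15. Lower calls of modest size in well expressed coding genes therefore sit close to a shift that the whole class shares. A pair of other scalings, chosen after the data were seen, move that shift. Scaling factors taken from coding genes alone gave 242 higher and 65 lower calls, so 78.8% of calls were higher in place of 31.1%, and moved the coding median to -0.0087. Removing each library's length trend among coding genes gave 315 higher and 536 lower calls, with a coding median of -0.22. Directions below are those of the scaling over all genes, and counts under the coding-gene scaling and the length-trend scaling follow in that order.

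The number of calls rested on single libraries. It was 44 without young KO batch 1, 83 without young WT batch 2, 115 without old KO batch 1, 159 without old KO batch 2 and 393 without old WT batch 1, against 3128, 3924 and 4935 without young KO batch 2, old WT batch 2 and young WT batch 1. Called in the full set and in all 8 of these reduced sets were 36 genes, of which 27 were higher and 9 lower in old cells. With litter as a replicate block, voom and limma gave 11960 calls, against 5624 without the block. The estimated correlation within a litter was -0.34, and a value below 0 narrows a difference between litters. Summing each litter to 1 library gave 7678 calls. That fit left 1 residual degree of freedom, so its count says little about the spread among litters. Removing a whole litter left 9 to 106 calls, and 2 genes, Plscr2 and Clca3a1, passed in all 12 reduced sets. In the sentences below "rose" and "fell" refer to the test on all 8 libraries, and the libraries whose removal ended a call are named with it.

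Plscr2, a phospholipid scramblase, rose with age and kept its call in all 12 reduced sets. It was at 3.63, 5.87, 4.38 and 7.100 TPM in the young libraries and at 59.01, 61.1, 63.7 and 57.97 TPM in the old ones, listed here and below as WT batch 1, WT batch 2, KO batch 1 and KO batch 2. No old library came near a young one, and both genotypes and batches gave the same picture. Its log2 change was 3.604 ± 0.19 (SE), with an adjusted p of 1.59e-05 by edgeR's test. The gene lies on chromosome 9, 92275602 to 92297752, in build GRCm38 (mm10), to which all coordinates here refer. Clca3a1, a member of the calcium-activated chloride channel regulator family (chromosome 3, 144729677 to 144760977), stood at 0.406, 1.01, 0.207 and 0.299 TPM in young and 6.797, 6.42, 2.54 and 4.91 TPM in old libraries. Its log2 change of 3.55 ± 0.27 (adjusted p = 0.000307) also separated every old library from every young one.

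Nupr1 and Aldh1a1 stood beside Plscr2 as the most abundant of the leading risers in old cells. Nupr1, a small stress-induced chromatin protein (chromosome 7, 126623249 to 126630861), was at 6.56, 11.7, 7.42 and 12.2 TPM in young and 61.3, 96.5, 52.3 and 64.6 TPM in old libraries. The groups did not overlap, and the log2 change was 2.44 ± 0.22 (adjusted p = 0.000893). Aldh1a1 makes retinoic acid from retinaldehyde (chromosome 19, 20492715 to 20643465). It was at 5.78, 11.6, 10.4 and 16.9 TPM in young and 58.6, 69.9, 66.2 and 50.5 TPM in old libraries, a log2 change of 2.53 ± 0.24 (adjusted p = 0.00102). Every old library again lay above every young one. Clu, the secreted chaperone clusterin (chromosome 14, 65968483 to 65981547), went from 2.68, 4.96, 2.82 and 2.59 TPM to 15.2, 20.4, 16.1 and 26.95 TPM, a log2 change of 2.57 ± 0.24 (adjusted p = 0.00102). All 3 genes passed with each library left out in turn.

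Several low-abundance surface and secreted proteins followed the same order. Zg16, a secreted lectin (chromosome 7, 127050156 to 127087328), was at 1.73, 3.52, 2.41 and 5.81 TPM in young and 14.5, 22.4, 14.6 and 43.5 TPM in old libraries (log2 change 2.85 ± 0.27, adjusted p = 0.00102). Bmp4, a bone morphogenetic protein ligand (chromosome 14, 46383520 to 46390669), was at 0.722, 1.904, 0.545 and 0.8596 TPM and 5.05, 11.5, 3.77 and 6.38 TPM (log2 change 2.63 ± 0.29, adjusted p = 0.002401). Tm4sf1, a tetraspanin-like membrane protein (chromosome 3, 57285611 to 57301988), rose from 0.783 ± 0.335 to 6.96 ± 3.21 TPM (mean ± SD, n = 4; log2 change 2.89 ± 0.35, adjusted p = 0.00433). Ackr1 is the atypical chemokine receptor also known as the Duffy antigen (chromosome 1, 173331886 to 173333750), and rose from 0.731 ± 0.223 to 5.72 ± 3.38 TPM (log2 change 2.83 ± 0.36, adjusted p = 0.00521). These 4 genes kept their calls without each library. Tmem215, a membrane protein (chromosome 4, 40472180 to 40477168), rose from 1.31 ± 0.477 to 9.17 ± 5.38 TPM (log2 change 2.58 ± 0.33, adjusted p = 0.00593). The call for Tmem215 was lost without young KO batch 1, at adjusted p of 0.0702.

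**Figure D1:**
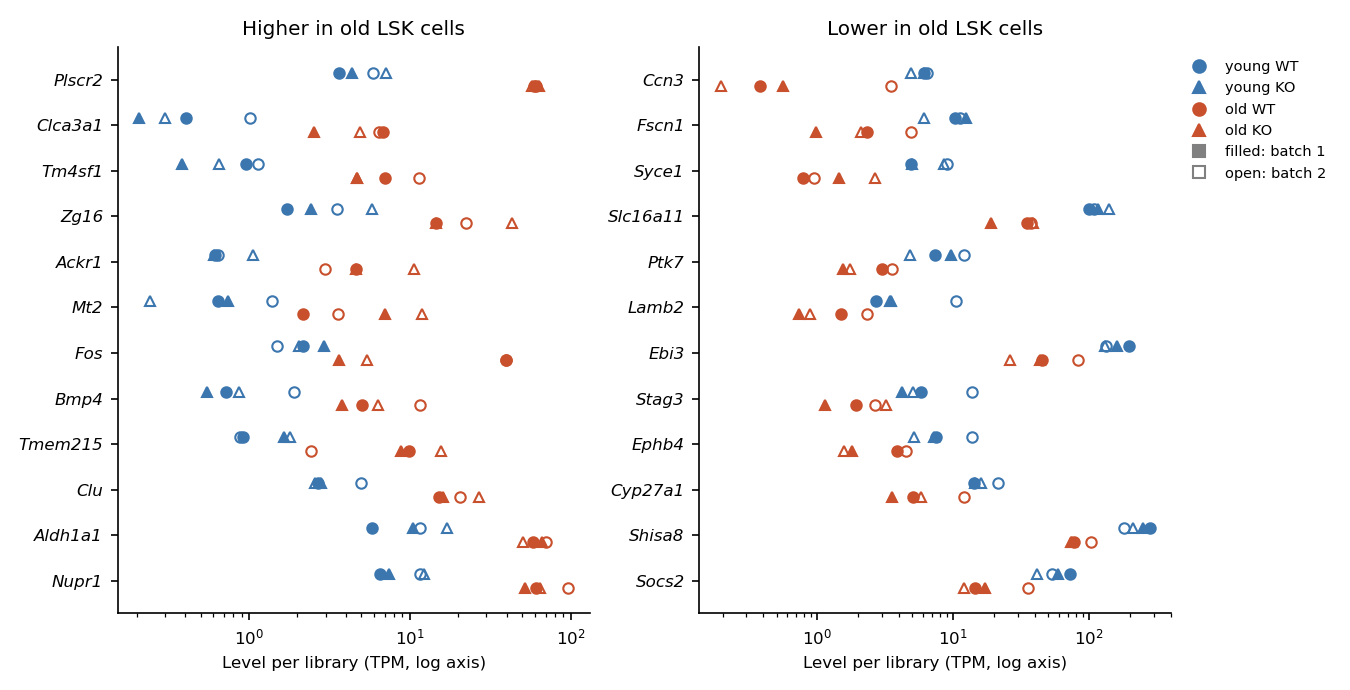
Level of each leading gene in each library, in TPM on a log axis, for the 12 genes with the highest and the 12 with the lowest log2 change that met the level and separation rule. Points are single libraries, coloured by age, shaped by genotype and filled for batch 1. In every row the 4 old libraries lie on 1 side of the 4 young ones, because separation was part of the rule for choosing them.

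Both metallothionein genes, which encode small metal-binding proteins induced by zinc and stress hormones, were higher in old cells. Mt1 was at 13.2, 9.62, 11.00 and 10.3 TPM in young and 30.6, 31.1, 73.3 and 76.6 TPM in old libraries, with no overlap. Its log2 change was 2.11 ± 0.33 (adjusted p = 0.0148). Mt2 was scarcer, at 0.645, 1.38, 0.737 and 0.241 TPM in young and 2.16, 3.59, 7.01 and 11.8 TPM in old libraries (log2 change 2.74 ± 0.68, adjusted p = 0.0309). The 2 old KO mice had the highest levels of both genes. The call for Mt1 was lost without young KO batch 1, at adjusted p of 0.0967. The call for Mt2 was lost without old KO batch 1, old KO batch 2, young KO batch 1 or young WT batch 2, at adjusted p of 0.0696 to 0.135. With either coding-gene scaling Mt2 also missed the threshold. The genes are neighbours on chromosome 8. The first 250 bases of each gene's RefSeq promoter record are shown because metallothionein promoters carry metal response elements. Their core was searched on both strands as TGCGCNC and TGCACNC. The distance of these windows to the start site used in LSK cells was not checked. No matches printed here overlap. Sequences are RefSeq's, on GRCm38.p6, plus strand, and capitals mark a match. Mt1 is chr8:94178839-94179088 and Mt2 is chr8:94172368-94172617.
Mt1: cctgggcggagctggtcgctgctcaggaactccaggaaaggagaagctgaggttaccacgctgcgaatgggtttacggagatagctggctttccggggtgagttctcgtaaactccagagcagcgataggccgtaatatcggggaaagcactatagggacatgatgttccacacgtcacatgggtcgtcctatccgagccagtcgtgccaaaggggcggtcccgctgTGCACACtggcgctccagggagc
Mt2: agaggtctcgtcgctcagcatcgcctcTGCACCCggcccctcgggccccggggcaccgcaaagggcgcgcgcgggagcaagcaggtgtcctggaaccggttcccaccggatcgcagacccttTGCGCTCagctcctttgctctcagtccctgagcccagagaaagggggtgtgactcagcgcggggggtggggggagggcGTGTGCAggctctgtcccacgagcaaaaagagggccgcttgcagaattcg
The Mt1 window held 0 matches to TGCGCNC and 1 to TGCACNC, and the Mt2 window held 1 and 2. Bases outside the windows were not searched, so these are not counts for the whole promoters. Among 32851 promoter windows of this length, 12.5% held the first core, 10.4% the second and 21.4% at least 1 of them, so a match is a common description and not evidence of binding.

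Fos, a subunit of the AP-1 factor and an early gene of stimulated or handled cells (chromosome 12, 85473890 to 85477273), differed between the genotypes in size. It was at 2.16, 1.49, 2.92 and 2.03 TPM in young and 39.9, 39.5, 3.65 and 5.45 TPM in old libraries. The 2 old WT mice stood far above the 2 old KO mice, which were only just above the young range. Over both genotypes the log2 change was 2.65 ± 0.72 (adjusted p = 0.0373), made of 4.52 ± 0.42 in WT and 0.78 ± 0.37 in KO. The interaction, -3.74 ± 0.53 on the log2 scale, did not pass (adjusted p = 0.222). The call for Fos was lost without old KO batch 2, old WT batch 1, young KO batch 1, young WT batch 1 or young WT batch 2, at adjusted p of 0.0552 to 0.123. It also missed the threshold under both coding-gene scalings. Of 31 tested immediate early and heat shock genes, 3 rose (9.68%, beside 4.34% of all genes) and 1 fell (3.23%, beside 9.61%). The others were Ier3, an early stress gene, which went from 53.7 ± 3.501 to 91.7 ± 17.98 TPM (log2 change 0.72 ± 0.15, adjusted p = 0.0227), Socs3, a cytokine signal inhibitor, and the antiproliferative gene Btg2, which went from 24.02 ± 7.197 to 17.7 ± 9.97 TPM (log2 change -0.62 ± 0.18, adjusted p = 0.0411). The call for Ier3 was lost without old KO batch 1, old KO batch 2, old WT batch 1, young KO batch 1 or young WT batch 2, at adjusted p of 0.0559 to 0.0989. The call for Btg2 was lost without old KO batch 1, old KO batch 2, old WT batch 1, young KO batch 1, young KO batch 2 or young WT batch 2, at adjusted p of 0.0743 to 0.154.

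Of the genes that fell with age, Slc16a11 combined a high level with a stable difference. Slc16a11 is a monocarboxylate transporter (chromosome 11, 70212752 to 70216417), and was at 100.2, 110.03, 116 and 141 TPM in young and 35.3, 37.2, 19.2 and 38.7 TPM in old libraries. The highest old library stayed well under the lowest young one. The log2 change was -1.93 ± 0.17 (adjusted p = 0.000893). Fscn1, the actin-bundling protein fascin (chromosome 5, 142960343 to 142973185), was at 10.3, 11.2, 12.4 and 6.07 TPM in young and 2.32, 4.88, 0.977 and 2.11 TPM in old libraries (log2 change -2.41 ± 0.31, adjusted p = 0.00553). Syce1, a component of the meiotic synaptonemal complex (chromosome 7, 140777229 to 140787852), was at 4.86, 8.95, 4.94 and 8.62 TPM and 0.777, 0.9405, 1.44 and 2.67 TPM (log2 change -2.36 ± 0.32, adjusted p = 0.00835). Those 3 genes passed without each library in turn and under both coding-gene scalings.

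The remaining 9 of the 12 lowest genes met the same rule of separation but leaned on single libraries. Shisa8, of a family of membrane adaptors, was the most abundant, at 281, 180.3, 251 and 212 TPM in young and 78.2, 103, 74.2 and 75.5 TPM in old libraries (log2 change -1.500 ± 0.20, adjusted p = 0.006504). Ebi3, a subunit of the cytokines IL-27 and IL-35, was at 196, 134, 160.4 and 131 TPM and 44.9, 83.8, 43.8 and 26.2 TPM (log2 change -1.69 ± 0.30, adjusted p = 0.0198). Socs2, an inhibitor of growth hormone and cytokine signalling, fell from 56.6 ± 12.7 to 19.9 ± 10.8 TPM (log2 change -1.45 ± 0.32, adjusted p = 0.0252). Ccn3, a secreted matricellular protein, fell from 5.86 ± 0.682 to 1.16 ± 1.56 TPM (log2 change -2.77 ± 0.68, adjusted p = 0.0307). Ptk7, a Wnt pathway pseudokinase receptor, fell from 8.48 ± 3.11 to 2.45 ± 0.973 TPM (log2 change -1.89 ± 0.27, adjusted p = 0.0114). The Eph receptor Ephb4 fell from 8.38 ± 3.72 to 2.94 ± 1.48 TPM (log2 change -1.59 ± 0.25, adjusted p = 0.0148). Lamb2, a laminin chain, fell from 5.02 ± 3.68 to 1.35 ± 0.7202 TPM (log2 change -1.78 ± 0.30, adjusted p = 0.0187). The meiotic cohesin subunit Stag3 fell from 7.21 ± 4.42 to 2.23 ± 0.907 TPM (log2 change -1.600 ± 0.24, adjusted p = 0.0122). Cyp27a1, a sterol hydroxylase, fell from 16.5 ± 3.37 to 6.59 ± 3.72 TPM (log2 change -1.55 ± 0.28, adjusted p = 0.0199). The calls for Shisa8 and Ebi3 were lost without young KO batch 1, at adjusted p of 0.0539 to 0.102. The calls for Socs2 and Cyp27a1 were lost without old KO batch 1, old KO batch 2, young KO batch 1 or young WT batch 2, at adjusted p of 0.0591 to 0.1201. The call for Ccn3 was lost without old KO batch 1, old KO batch 2, old WT batch 1, young KO batch 1 or young WT batch 2, at adjusted p of 0.0511 to 0.121. The call for Ptk7 was lost without young WT batch 2, at adjusted p of 0.0607. The calls for Ephb4, Lamb2 and Stag3 were lost without young KO batch 1 or young WT batch 2, at adjusted p of 0.05504 to 0.102. Under the coding-gene scaling Ccn3 and Socs2 missed the threshold, and under the length-trend scaling Ccn3 did.

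Genes already described as raised in old blood stem cells were the list with the clearest age difference. Of 40 measured members, 24 rose, none fell and 16 did not pass, beside 4.34% of all genes called higher. The median log2 change was 1.68, against -0.29 for well expressed coding genes, and was 1.96 and 1.76 under the 2 coding-gene scalings, where 21 and 23 members rose. In 17 members every old library lay above every young one, beside 4.73% of all genes. Summed over the list, levels ran from 225 to 502 TPM in young and 605 to 1003 TPM in old libraries. The number that rose was 13 without young KO batch 1 and 17 to 24 without each other library, and 13 members kept their calls in all 8 reduced sets. The list was drawn up with results of these libraries known, so its direction is no independent evidence.

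Beside Plscr2, Clca3a1, Nupr1, Aldh1a1, Clu, Zg16 and Tm4sf1, the members that kept their calls, chosen here after their values were seen, included adhesion, detoxification and signalling genes. Selp, the adhesion receptor P-selectin of platelets and endothelium (chromosome 1, 164115264 to 164150026), was at 2.45, 6.32, 4.904 and 5.29 TPM in young and 41.4, 22.2, 19.5 and 23.1 TPM in old libraries (log2 change 2.400 ± 0.28, adjusted p = 0.00357). Old WT batch 1 was the highest, and the lowest old library was still above all young ones. Cavin2, a coat protein of caveolae, was at 1.64, 4.76, 3.86 and 4.91 TPM and 10.4, 19.7, 12.2 and 22.9 TPM (log2 change 2.09 ± 0.21, adjusted p = 0.00155). The detoxifying transferases Gstm2 and Sult1a1 rose from 6.32 ± 3.301 to 33.97 ± 19.2 TPM (log2 change 2.33 ± 0.28) and from 10.9 ± 3.39 to 51.96 ± 29.97 TPM (log2 change 2.16 ± 0.26). Wwtr1, the Hippo pathway coactivator TAZ, went from 0.109, 0.423, 0.0937 and 0.295 TPM to 3.15, 3.15, 1.93 and 1.55 TPM (log2 change 3.58 ± 0.40, adjusted p = 0.002900). Gpr183, an oxysterol receptor that guides immune cells, rose from 0.577 ± 0.184 to 4.44 ± 2.85 TPM (log2 change 2.77 ± 0.34). Among members that did not pass, Vwf, the platelet adhesion protein, was at 4.91 ± 2.25 TPM in young and 11.5 ± 5.09 TPM in old libraries (log2 change 0.69 ± 0.30, adjusted p = 0.121). Slamf1 (CD150), a marker of long-term stem cells, was at 9.15 ± 4.62 and 12.8 ± 2.36 TPM (log2 change 0.60 ± 0.22, adjusted p = 0.0808).

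The stem cell identity list, of factors and receptors that mark and maintain stem cells, had a share of lower calls near that of all well expressed coding genes, 24.1% beside 22.7%. None of 29 members rose and 7 fell (among them Hlf, Fgd5, Kit, Robo4, Cd34 and Ptpn21), with a median of -0.45 beside -0.29 for well expressed coding genes. Among the members of smallest p were Robo4, a guidance receptor, which went from 20.7 ± 9.14 to 11.01 ± 5.24 TPM (log2 change -1.01 ± 0.22, adjusted p = 0.0258), and Cd34, a sialomucin, which went from 886 ± 125 to 651 ± 137 TPM (log2 change -0.50 ± 0.11, adjusted p = 0.0262). The call for Robo4 was lost without old KO batch 1, old KO batch 2, old WT batch 1, young KO batch 1 or young WT batch 2, at adjusted p of 0.0528 to 0.132. The call for Cd34 was lost without old KO batch 1, old KO batch 2, old WT batch 1, young KO batch 1, young KO batch 2 or young WT batch 2, at adjusted p of 0.0696 to 0.118. The number that fell was 0 without old KO batch 1, old KO batch 2, young KO batch 1, old WT batch 1 or young WT batch 2 and 14 without young WT batch 1. It was 0 and 1 under the coding-gene scalings. The balance of calls also depended on the filter and the method. With a 5 TPM filter 3 of 26 members rose and 1 fell, with a median of -0.21. With DESeq2 3 of 29 rose and 15 fell, and with no filter 3 rose and 14 fell. Kit itself was at 547 TPM in young WT batch 2 and 63.4 to 219 TPM in the other 7 libraries.

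Among lymphoid priming genes, Flt3 was the most stable of those that fell. Flt3, the receptor kinase that marks lymphoid-primed multipotent progenitors (chromosome 5, 147330741 to 147400489), was at 325, 480.1, 265 and 239 TPM in young and 212, 246, 95.2 and 142 TPM in old libraries. Its groups overlapped, since old WT batch 2 was above young KO batch 2. Within each genotype and batch the old library was the lower one. The log2 change was -0.999 ± 0.14 (adjusted p = 0.00964), and the call held without each library and under both coding-gene scalings. Of the 26 members tested, 1 rose and 6 fell (Flt3, Notch1, Ikzf1, Tcf3, Lax1 and Ets1), with a median of -0.12. The share lower, 23.1%, was near the 22.7% of well expressed coding genes. Tcf3, the E protein E2A, went from 224 ± 45.6 to 144 ± 44.5 TPM (log2 change -0.68 ± 0.11, adjusted p = 0.0159). The call for Tcf3 was lost without old KO batch 1, old KO batch 2, young KO batch 1 or young WT batch 2, at adjusted p of 0.0587 to 0.0911. The number that fell was 1 without old KO batch 1, old KO batch 2, young KO batch 1 or young WT batch 2 and 2 without old WT batch 1, and 1 and 5 under the coding-gene scalings.

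Myeloid progenitor genes gave few calls, with 0 of 25 higher and 1 lower, 4.0% beside 22.7% of well expressed coding genes. The median of -0.06 joined opposite signs, at -0.31 in WT and 0.17 in KO mice, and -0.35 in batch 1 and 0.19 in batch 2. The member that fell was Gfi1, a repressor needed for granulocytes, from 53.05 ± 18.7 to 34.6 ± 19.1 TPM (log2 change -0.78 ± 0.19, adjusted p = 0.0285). The cytokine receptor subunit Csf2rb was at 15.1 ± 2.72 and 11.4 ± 2.73 TPM (adjusted p = 0.0767) and the granulocyte colony-stimulating factor receptor Csf3r at 127 ± 41.8 and 102 ± 28.2 TPM (adjusted p = 0.0849). Neither passed. The call for Gfi1 was lost without old KO batch 1, old KO batch 2, old WT batch 1, young KO batch 1, young KO batch 2 or young WT batch 2, at adjusted p of 0.0515 to 0.1204. Without young WT batch 1, 4 members rose.

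Of 28 megakaryocyte and platelet genes, 17.9% were called higher, beside 4.34% of all genes and 1.32% of well expressed coding genes. The 5 that rose were Gp1bb, Selp, Itgb3, Clec1b and Cavin2, and 1 fell, with a median of 0.35. Gp1bb, a chain of the platelet receptor for von Willebrand factor, was at 3.37, 2.78, 6.94 and 4.79 TPM in young and 7.68, 5.28, 30.9 and 19.1 TPM in old libraries, whose ranges overlapped (log2 change 1.57 ± 0.28, adjusted p = 0.0202). The call for Gp1bb was lost without old KO batch 1, old KO batch 2 or young KO batch 1, at adjusted p of 0.0661 to 0.102. The number that rose was 2 without young KO batch 1 and 3 without old KO batch 1 or old KO batch 2, and 6 and 6 under the coding-gene scalings. Selp and Itgb3 are also members of the aged stem cell list, as is Cavin2. The list's summed level was 1920 to 2486 TPM in young and 1604 to 2604 TPM in old libraries, with overlap.

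**Figure D2:**
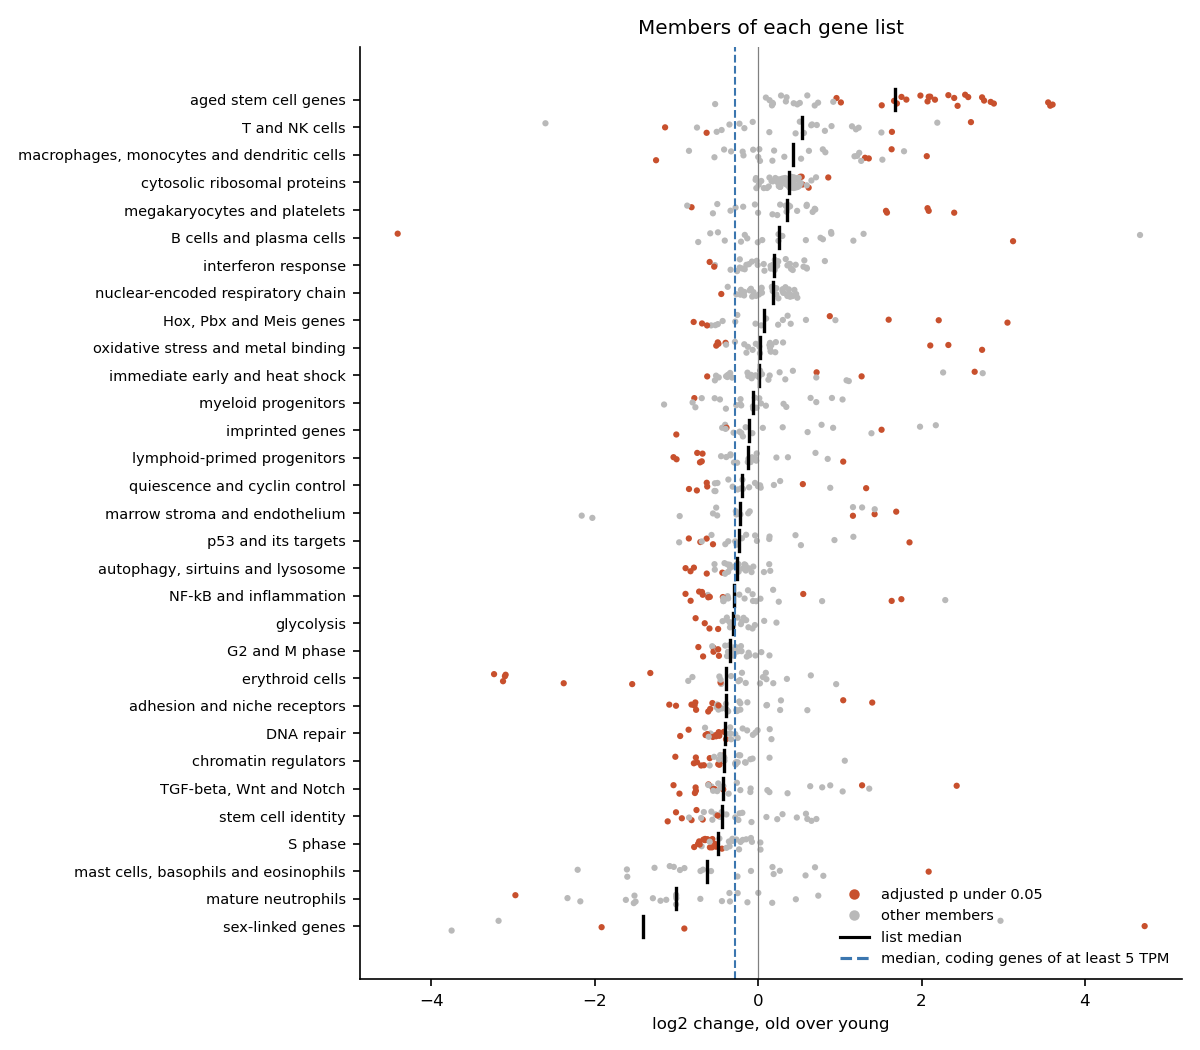
The log2 change with age of each tested member of the 31 gene lists, in rows ordered by list median. Red points passed an adjusted p under 0.05, black bars are list medians and the dashed line is the median of well expressed coding genes at -0.29. Only the aged stem cell list has its median above 1, at 1.68.

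DNA replication genes were lower in old cells. Of 32 S phase genes, 15 fell and none rose, 46.9%, beside 22.7% of well expressed coding genes called lower, and the median was -0.49. All 6 minichromosome maintenance helicase genes Mcm2 to Mcm7 were among them, with the licensing factors Cdc6 and Cdt1. Mcm3 was at 394, 441, 340.1 and 312 TPM in young and 293, 234, 204 and 234 TPM in old libraries, so the groups were apart (log2 change -0.65 ± 0.11, adjusted p = 0.0173). Mcm2 was at 244, 289, 209.5 and 191 and 195, 135, 113 and 142 TPM (log2 change -0.72 ± 0.12, adjusted p = 0.0173). Pold1, the catalytic subunit of DNA polymerase delta, went from 160.5 ± 49.6 to 95.8 ± 28.1 TPM (log2 change -0.78 ± 0.13, adjusted p = 0.0176). The call for Mcm3 was lost without old KO batch 1, old KO batch 2, young KO batch 1 or young WT batch 2, at adjusted p of 0.0514 to 0.0911. The calls for Mcm2 and Pold1 were lost without old KO batch 1, young KO batch 1 or young WT batch 2, at adjusted p of 0.0566 to 0.102. In 9 of the 32 genes all old libraries lay below all young ones, beside 2.6% of well expressed coding genes. The number that fell was 0 without old KO batch 1, young KO batch 1 or young WT batch 2, 4 without old KO batch 2, 6 without old WT batch 1 and 9 without young KO batch 2, and 0 and 7 under the coding-gene scalings, with medians of -0.21 and -0.32. Of the genes of G2 and M phase, 6 of 28 were lower and none higher, a share of 21.4% that was near the 22.7% of well expressed coding genes, with a median of -0.34. That count was 2 without young KO batch 2, 8 without young WT batch 1 and 0 without each of the other 6 libraries. They were led by the cytokinesis genes Anln, which went from 15.9 ± 5.32 to 9.88 ± 2.81 TPM (log2 change -0.73 ± 0.18, adjusted p = 0.0302), Ect2, which went from 51.9 ± 20.7 to 35.2 ± 9.99 TPM (log2 change -0.67 ± 0.17, adjusted p = 0.0341), and Kif20a, which went from 82.2 ± 16.2 to 58.7 ± 16.2 TPM (log2 change -0.55 ± 0.15, adjusted p = 0.0362). The calls for Anln and Ect2 were lost without old KO batch 1, old KO batch 2, old WT batch 1, old WT batch 2, young KO batch 1 or young WT batch 2, at adjusted p of 0.0511 to 0.158. The call for Kif20a was lost without each library except young WT batch 1, at adjusted p of 0.06305 to 0.155. None of the G2 and M genes passed under either coding-gene scaling.

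Among genes of quiescence and cyclin control, 2 of 24 rose and 4 fell, 8.33% and 16.7% beside 1.32% and 22.7% of well expressed coding genes. Cdkn1a, the p21 inhibitor of cyclin-dependent kinases, rose from 13.9, 10.4, 21.6 and 15.3 TPM to 40.6, 16.9, 54.9 and 68.7 TPM, with overlapping groups (log2 change 1.32 ± 0.22, adjusted p = 0.0185). The pocket proteins Rbl1 and Rbl2, which repress E2F targets, went from 52.4 ± 18.2 to 34.8 ± 5.701 TPM (log2 change -0.75 ± 0.16, adjusted p = 0.0243) and from 43.5 ± 27.5 to 26.5 ± 13.1 TPM (log2 change -0.85 ± 0.19, adjusted p = 0.0267). The call for Cdkn1a was lost without old KO batch 2, young KO batch 1 or young WT batch 2, at adjusted p of 0.0526 to 0.102. The call for Rbl1 was lost without old KO batch 1, old KO batch 2, young KO batch 1 or young WT batch 2, at adjusted p of 0.0664 to 0.121. The call for Rbl2 was lost without old KO batch 1, old KO batch 2, old WT batch 1, young KO batch 1 or young WT batch 2, at adjusted p of 0.0528 to 0.132. Cdkn1a passed under both coding-gene scalings, and Rbl1 and Rbl2 under neither. The list of p53 and its targets had 1 of 22 higher (Pmaip1) and 4 lower (Mdm2, Sesn1, Sesn2 and Gtse1). Its shares, 4.55% higher and 18.2% lower, stand beside 1.32% and 22.7% of well expressed coding genes. The p53 targets Sesn2 and Sesn1 and the p53 ligase Mdm2 went from 13.3 ± 4.69 to 8.15 ± 4.57 TPM (log2 change -0.85 ± 0.17, adjusted p = 0.0219), from 185 ± 38.2 to 126 ± 59.9 TPM (log2 change -0.71 ± 0.15, adjusted p = 0.0249) and from 61.1 ± 17.2 to 42.8 ± 17.2 TPM (log2 change -0.63 ± 0.15, adjusted p = 0.0277). The call for Sesn2 was lost without old KO batch 1, old KO batch 2, old WT batch 1, young KO batch 1 or young WT batch 2, at adjusted p of 0.0541 to 0.103. The calls for Sesn1 and Mdm2 were lost without old KO batch 1, old KO batch 2, old WT batch 1, young KO batch 1, young KO batch 2 or young WT batch 2, at adjusted p of 0.0556 to 0.1201. The number that fell was 0 and 1 under the coding-gene scalings.

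DNA repair genes had 11 of 28 members lower, 39.3% beside 22.7% of well expressed coding genes, none higher and a median of -0.41. The mismatch repair gene Msh6 was at 77.2, 129, 73.4 and 65.7 TPM in young and 70.5, 56.1, 29.2 and 45.1 TPM in old libraries, with overlap (log2 change -0.85 ± 0.15, adjusted p = 0.0198). Parp1, a sensor of strand breaks, went from 166 ± 44.7 to 112 ± 31.2 TPM (log2 change -0.64 ± 0.13, adjusted p = 0.0227), and the damage recognition factor Xpc from 115 ± 27.9 to 78.3 ± 23.97 TPM (log2 change -0.62 ± 0.14, adjusted p = 0.0258). The call for Msh6 was lost without old KO batch 1, old KO batch 2, young KO batch 1 or young WT batch 2, at adjusted p of 0.0574 to 0.102. The calls for Parp1 and Xpc were lost without old KO batch 1, old KO batch 2, old WT batch 1, young KO batch 1 or young WT batch 2, at adjusted p of 0.0511 to 0.119. The count that fell was 0 without old KO batch 1, old KO batch 2, young KO batch 1 or young WT batch 2, 2 without old WT batch 1 and 4 without young KO batch 2, and 0 and 3 under the coding-gene scalings. Chromatin regulators had 11 of 30 lower, 36.7% beside the same 22.7%, and none higher, with a median of -0.42. They were long, with a median effective length of 3425 bases. The nearest length class of coding genes had 486 of 983 lower and a median of -0.52, so the list did not stand out from it. Cbx2, a Polycomb subunit, was at 27.5, 31.9, 25.7 and 17.1 TPM and 19.9, 14.5, 8.73 and 10.7 TPM (log2 change -1.01 ± 0.16, adjusted p = 0.0148). The DNA methyltransferase Dnmt3b went from 74.97 ± 9.199 to 47.95 ± 14.3 TPM (log2 change -0.76 ± 0.13, adjusted p = 0.0198), and Bap1, the deubiquitinase that Asxl proteins bind, from 104 ± 34.02 to 63.96 ± 25.7 TPM (log2 change -0.79 ± 0.14, adjusted p = 0.0198). The calls for Cbx2 and Dnmt3b were lost without old KO batch 1, young KO batch 1 or young WT batch 2, at adjusted p of 0.05498 to 0.0989. The call for Bap1 was lost without old KO batch 1, old KO batch 2, young KO batch 1 or young WT batch 2, at adjusted p of 0.0637 to 0.0967. The count was 0 without old KO batch 1, young KO batch 1 or young WT batch 2, 2 without old KO batch 2, 3 without old WT batch 1 and 5 without young KO batch 2, and 1 and 2 under the coding-gene scalings, of which Cbx2 passed both. Asxl2 itself did not pass for age (log2 change -0.07 ± 0.17, adjusted p = 0.775).

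Of 38 interferon response genes none rose and 2 fell, Stat2 and Ddx58, 5.26% beside 22.7% of well expressed coding genes. The list's median was 0.19, above the -0.29 of well expressed coding genes, with 24 of 38 members positive. It was 0.06 in WT and 0.28 in KO mice, and 0.46 and 0.12 under the coding-gene scalings. The signal transducer Stat2 went from 23.97 ± 11.5 to 16.7 ± 7.200 TPM (log2 change -0.59 ± 0.18, adjusted p = 0.0478) and the RNA sensor Ddx58 from 48.9 ± 14.00 to 42.8 ± 10.6 TPM (log2 change -0.54 ± 0.15, adjusted p = 0.0433), while the antiviral gene Ifit2 was at 16.7 ± 8.13 and 11.3 ± 2.52 TPM and did not pass (adjusted p = 0.0529). The calls for Stat2 and Ddx58 were lost without each library except young WT batch 1, at adjusted p of 0.0501 to 0.204. The NF-kB list had 3 of 28 higher (Il6, Bcl3 and Cd40) and 8 lower, 28.6% beside 22.7% of well expressed coding genes, with a median of -0.30. The inhibitor Tnip1, the subunit gene Nfkb2 and the adhesion molecule Icam1 went from 48.9 ± 11.7 to 29.2 ± 7.86 TPM (log2 change -0.83 ± 0.17, adjusted p = 0.0237), from 20.8 ± 5.25 to 13.3 ± 4.71 TPM (log2 change -0.72 ± 0.16, adjusted p = 0.0261) and from 72.2 ± 15.5 to 51.5 ± 22.4 TPM (log2 change -0.61 ± 0.14, adjusted p = 0.0281). The calls for Tnip1 and Nfkb2 were lost without old KO batch 1, old KO batch 2, old WT batch 1, young KO batch 1 or young WT batch 2, at adjusted p of 0.06104 to 0.1201. The call for Icam1 was lost without old KO batch 1, old KO batch 2, old WT batch 1, young KO batch 1, young KO batch 2 or young WT batch 2, at adjusted p of 0.0639 to 0.121. Under the coding-gene scalings no gene of either list passed. The oxidative stress list had 3 of 25 higher, Mt1, Mt2 and Gstm2, and 4 lower, Gclc, Txnrd1, Cat and Keap1. These shares, 12.0% and 16.0%, stand beside 1.32% and 22.7% of well expressed coding genes. Txnrd1, a thioredoxin reductase, went from 136 ± 25.1 to 102 ± 28.8 TPM (log2 change -0.49 ± 0.11, adjusted p = 0.02797). The call for Txnrd1 was lost without old KO batch 1, old KO batch 2, old WT batch 1, young KO batch 1, young KO batch 2 or young WT batch 2, at adjusted p of 0.0652 to 0.121.

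Cytosolic ribosomal protein genes, with a median effective length of 481 bases, had 6 of 71 higher, 8.45% beside 1.32% of well expressed coding genes, none lower and a median of 0.38. That median was 0.12 in WT and 0.58 in KO mice, so the pooled value was mostly that of KO. Summed levels were 23696 to 38398 TPM in young libraries, 33103 and 29432 TPM in old WT and 52450 and 41996 TPM in old KO. The small subunit genes Rps23, Rps25 and Rps27a went from 137 ± 24.3 to 220.4 ± 66.8 TPM (log2 change 0.62 ± 0.16, adjusted p = 0.0346), from 259 ± 50.1 to 387 ± 105 TPM (log2 change 0.53 ± 0.14, adjusted p = 0.0348) and from 259 ± 53.5 to 382 ± 108 TPM (log2 change 0.52 ± 0.14, adjusted p = 0.0369). The call for Rps23 was lost without old KO batch 1, old KO batch 2, young KO batch 1 or young WT batch 2, at adjusted p of 0.0743 to 0.135. The call for Rps25 was lost without old KO batch 1, old KO batch 2, old WT batch 1, young KO batch 1 or young WT batch 2, at adjusted p of 0.0544 to 0.131. The call for Rps27a was lost without old KO batch 1, old KO batch 2, old WT batch 1, old WT batch 2, young KO batch 1 or young WT batch 2, at adjusted p of 0.0512 to 0.138. The count was 0 without old KO batch 1, old KO batch 2, young KO batch 1 or young WT batch 2, 1 without old WT batch 1, 2 without old WT batch 2 and 15 without young WT batch 1. It was 14 and 0 under the coding-gene and length-trend scalings, with medians of 0.65 and -0.09, so the list's direction turned once the length trend was removed. Nuclear-encoded respiratory chain genes had none of 38 higher and 1 lower, 2.63% beside 22.7% of well expressed coding genes. It was Sdha, which went from 366 ± 49.9 to 287 ± 63.7 TPM (log2 change -0.45 ± 0.11, adjusted p = 0.0319). The list's median effective length was 533 bases and its median change 0.18. In the shortest class of coding genes 7 of 984 were lower and the median was 0.21, so the list was near genes of its length. The complex I subunit Ndufs1 (113 ± 21.5 and 92.8 ± 17.3 TPM, adjusted p = 0.0543) and the complex IV subunit Cox7c (156 ± 37.2 and 228 ± 60.4 TPM, adjusted p = 0.0626) did not pass. Glycolysis had 4 of 21 lower, beside 22.7% of well expressed coding genes, and none higher, led by Pdk1, which restrains pyruvate dehydrogenase, and the phosphofructokinases Pfkm and Pfkl. These went from 105 ± 34.6 to 75.2 ± 24.2 TPM (log2 change -0.65 ± 0.14, adjusted p = 0.0236), from 42.7 ± 8.97 to 29.6 ± 9.94 TPM (log2 change -0.60 ± 0.13, adjusted p = 0.0247) and from 189.6 ± 32.3 to 142 ± 36.4 TPM (log2 change -0.49 ± 0.11, adjusted p = 0.0252). The calls for Sdha, Pfkm and Pfkl were lost without old KO batch 1, old KO batch 2, old WT batch 1, young KO batch 1, young KO batch 2 or young WT batch 2, at adjusted p of 0.0551 to 0.147. The call for Pdk1 was lost without old KO batch 1, old KO batch 2, old WT batch 1, young KO batch 1 or young WT batch 2, at adjusted p of 0.0569 to 0.112. The autophagy, sirtuin and lysosome list had 5 of 29 lower, 17.2% beside 22.7% of well expressed coding genes, and none higher. Its leading genes were the lysosome regulator Tfeb, at 41.2, 34.1, 31.8 and 28.5 TPM in young and 27.1, 24.7, 15.99 and 15.4 TPM in old libraries (log2 change -0.79 ± 0.14, adjusted p = 0.0204), the autophagy kinase Ulk1, from 21.3 ± 7.71 to 14.7 ± 5.27 TPM (log2 change -0.83 ± 0.21, adjusted p = 0.0324), and the forkhead factor Foxo3, from 8.61 ± 1.88 to 6.82 ± 2.41 TPM (log2 change -0.63 ± 0.16, adjusted p = 0.0349). The calls for Tfeb and Ulk1 were lost without old KO batch 1, old KO batch 2, old WT batch 1, young KO batch 1 or young WT batch 2, at adjusted p of 0.0541 to 0.1600. The call for Foxo3 was lost without old KO batch 1, old KO batch 2, old WT batch 1, young KO batch 1, young KO batch 2 or young WT batch 2, at adjusted p of 0.0561 to 0.149. The coding-gene scalings left 0 and 0 lower in glycolysis and 0 and 1 in the autophagy list.

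**Figure D3:**
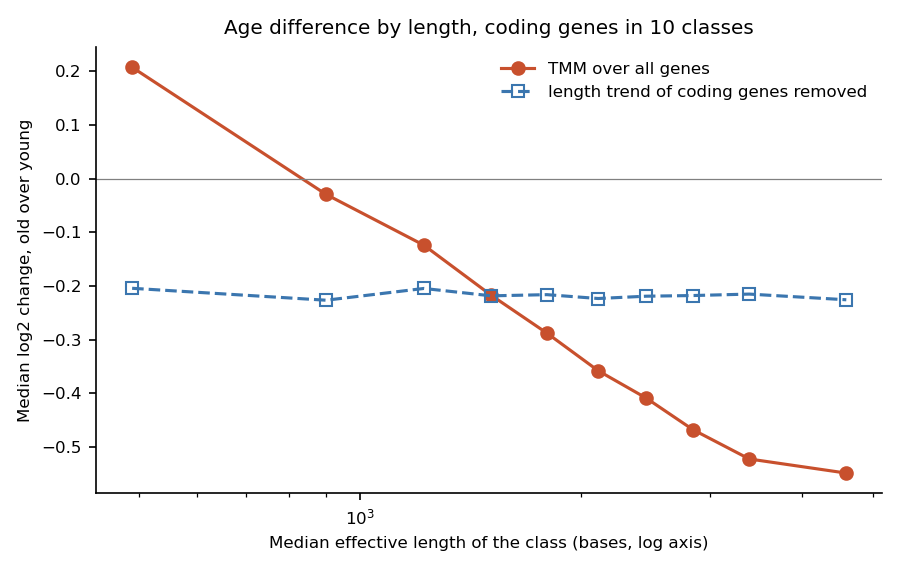
Median log2 change with age in 10 classes of coding genes by effective transcript length, with the scaling over all genes (filled) and after removing the length trend of coding genes (open). With the first, medians ran from 0.21 in the shortest class to -0.55 in the longest, and with the second they stayed between -0.23 and -0.20.

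Across coding genes, log2 TPM fell with log2 length at a slope of -0.614 to -0.268 in young and -0.885 to -0.558 in old libraries. That difference did not pass an exact permutation test of the means, two-sided (p = 0.229, adjusted p = 0.429 over 6 library measures, smallest p possible 0.0286). Genes detected were 26237 to 33258 in young and 30865 to 36175 in old libraries (exact permutation p = 0.0571, adjusted p = 0.257). The share of counts in noncoding and pseudogene biotypes was 2.12% to 3.12% in young and 2.96% to 4.69% in old libraries (exact permutation p = 0.0857, adjusted p = 0.257). Young WT batch 2 had the flattest slope and the fewest genes detected. The part of these measures in the gene results beyond the scalings above was not tested.

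The TGF-beta, Wnt and Notch list had 2 of 32 higher (Tgfb3 and Bmpr1a) and 9 lower, 28.1% beside 22.7% of well expressed coding genes, with a median of -0.43. The number that fell was 0 without old KO batch 1, old KO batch 2, old WT batch 1, young KO batch 1 or young WT batch 2, 5 without young KO batch 2, 9 without old WT batch 2 and 13 without young WT batch 1. The median effective length of this list was 3018 bases. Its nearest length class of coding genes had 452 of 983 lower and a median of -0.47. Bmpr1a, a type I receptor for Bmp4 and its relatives, went from 0.1502, 0.521, 0.127 and 0.465 TPM to 1.85, 1.96, 1.65 and 1.81 TPM, without overlap (log2 change 2.43 ± 0.34, adjusted p = 0.00957), and kept its call without each library. The Notch ligand Jag2, the receptor Notch1 and the Wnt effector Ctnnb1 went from 7.35 ± 1.45 to 3.96 ± 1.05 TPM (log2 change -0.96 ± 0.18, adjusted p = 0.0213), from 6.91 ± 0.858 to 4.52 ± 1.43 TPM (log2 change -1.04 ± 0.21, adjusted p = 0.0219) and from 165 ± 22.3 to 116 ± 29.2 TPM (log2 change -0.55 ± 0.12, adjusted p = 0.0251). The calls for Jag2 and Notch1 were lost without old KO batch 1, old KO batch 2, old WT batch 1, young KO batch 1 or young WT batch 2, at adjusted p of 0.0508 to 0.1201. The call for Ctnnb1 was lost without old KO batch 1, old KO batch 2, old WT batch 1, young KO batch 1, young KO batch 2 or young WT batch 2, at adjusted p of 0.0539 to 0.116. Under the coding-gene scalings 2 and 2 members rose and 0 and 1 fell. The adhesion and niche receptor list had 2 of 31 higher, Jam2 among them, and 10 lower, 32.3% beside the same 22.7%, with a median of -0.39. Its median effective length was 2409 bases, and the nearest length class had 372 of 983 lower and a median of -0.41. Jam2, a junctional adhesion molecule, rose from 3.998, 4.66, 1.68 and 2.75 TPM to 10.3, 11.7, 9.37 and 6.71 TPM (log2 change 1.397 ± 0.25, adjusted p = 0.0198). Itgb2, the beta chain of leukocyte integrins, fell from 37.5, 40.5, 31.7 and 34.6 TPM to 20.5, 28.2, 10.4 and 15.4 TPM (log2 change -1.09 ± 0.18, adjusted p = 0.0173). Both separated the ages in all libraries and passed under both coding-gene scalings. The call for Jam2 was lost without old KO batch 1 or young KO batch 1, at adjusted p of 0.0574 to 0.102. The call for Itgb2 was lost without old KO batch 1, old KO batch 2 or young KO batch 1, at adjusted p of 0.0516 to 0.0929. The number that fell was 0 without old KO batch 1, old KO batch 2 or young KO batch 1, 1 without young WT batch 2, 2 without old WT batch 1 and 6 without young KO batch 2, and 1 and 3 under the coding-gene scalings.

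Homeobox genes had calls in both directions over all 8 libraries. Of 22 Hox, Pbx and Meis genes 4 rose (among them Hoxb2, Hoxb6 and Hoxb7) and 3 fell (Hoxa3, Hoxa9 and Pknox1), with a median of 0.07. These shares, 18.2% and 13.6%, stand beside 4.34% and 9.61% of all genes, and beside 1.32% and 22.7% of well expressed coding genes. Both counts were 0 without old KO batch 1, old KO batch 2, old WT batch 1, young KO batch 1 or young WT batch 2. They were 3 and 1 without young KO batch 2, 2 and 4 without old WT batch 2, and 4 and 4 without young WT batch 1. Hoxb2 was at 5.702, 6.89, 8.09 and 6.33 TPM in young and 11.1, 11.2, 17.6 and 9.92 TPM in old libraries (log2 change 0.88 ± 0.24, adjusted p = 0.0373). Hoxa9, a self-renewal factor, went from 162 ± 31.5 to 114 ± 53.7 TPM (log2 change -0.63 ± 0.16, adjusted p = 0.0331), and the Meis relative Pknox1 from 38.3 ± 12.8 to 25.03 ± 7.26 TPM (log2 change -0.69 ± 0.15, adjusted p = 0.0259). The call for Hoxb2 was lost without each library except young KO batch 2, at adjusted p of 0.0541 to 0.138. The call for Hoxa9 was lost without old KO batch 1, old KO batch 2, old WT batch 1, young KO batch 1, young KO batch 2 or young WT batch 2, at adjusted p of 0.0743 to 0.1299. The call for Pknox1 was lost without old KO batch 1, old KO batch 2, old WT batch 1, young KO batch 1 or young WT batch 2, at adjusted p of 0.05598 to 0.121. Under the coding-gene scalings 3 and 0 rose and 0 and 1 fell. Of 20 imprinted genes 1 rose, the maternally expressed RNA Rian, from 2.41 ± 0.823 to 7.03 ± 2.37 TPM (log2 change 1.51 ± 0.40, adjusted p = 0.0362), and 2 fell, Igf2r and the G protein gene Gnas, from 996 ± 175 to 785 ± 166 TPM (log2 change -0.39 ± 0.11, adjusted p = 0.0412). The share of imprinted genes called higher, 5.0%, stands beside 4.34% of all genes, and the 2 of 20 lower beside 9.61%. Both were near the shares of all genes, so the list did not stand out. Sgce, a sarcoglycan, was at 35.4 ± 8.76 and 28.6 ± 15.2 TPM and did not pass (adjusted p = 0.1495). The call for Rian was lost without old KO batch 1, old KO batch 2, old WT batch 1, young KO batch 1 or young WT batch 2, at adjusted p of 0.0708 to 0.132. The call for Gnas was lost without each library except old WT batch 2, at adjusted p of 0.0592 to 0.195.

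Markers of other cell types varied between libraries as well as between ages. Of 26 erythroid genes 8 fell, 30.8% beside 22.7% of well expressed coding genes, 4 of them adult globins, and none rose. Hbb-bt was at 93.4, 102, 119 and 132 TPM in young and 31.7, 49.3, 59.9 and 36.7 TPM in old libraries, without overlap (log2 change -1.32 ± 0.25, adjusted p = 0.0207). Hbb-bs was at 209.8, 231, 51.8 and 124 and 13.9, 173, 2.94 and 3.44 TPM (log2 change -3.23 ± 0.71, adjusted p = 0.0251) and Hba-a2 at 273, 522, 49.1 and 122 and 23.05, 244, 4.24 and 0.229 TPM (log2 change -3.099 ± 0.79, adjusted p = 0.0331). Old WT batch 2 held far more of both than the other old libraries. Each has a near-identical copy, between which shared reads were divided by estimate. The call for Hbb-bt was lost without old KO batch 2, young KO batch 1 or young WT batch 2, at adjusted p of 0.0503 to 0.102. The call for Hbb-bs was lost without old KO batch 1, old KO batch 2 or young KO batch 1, at adjusted p of 0.0607 to 0.106. The call for Hba-a2 was lost without old KO batch 1, old WT batch 1, young KO batch 1 or young WT batch 2, at adjusted p of 0.0599 to 0.128. The number of erythroid genes that fell was 0 without young KO batch 1, 1 without young WT batch 2, 3 without old KO batch 1 and 4 without old KO batch 2 or old WT batch 1, and 1 and 6 under the coding-gene scalings. Summed levels were 2025 to 3452 TPM in young and 1550 to 3320 TPM in old libraries.

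In the list of macrophage, monocyte and dendritic genes 4 of 28 rose, 14.3% beside 4.34% of all genes, and Axl fell. The 4 were H2-Ab1, H2-Aa, H2-Eb1 and Cd74, which encode MHC class II chains and the invariant chain. H2-Eb1 was at 56.5, 51.8, 45.1 and 142 TPM in young and 197, 365, 422 and 149 TPM in old libraries, without overlap (log2 change 2.06 ± 0.41, adjusted p = 0.0219). H2-Aa was at 98.1, 107, 83.3 and 216 and 231, 543, 496 and 192 TPM, with overlap (log2 change 1.63 ± 0.39, adjusted p = 0.0287). The receptor kinase Axl was at 10.2, 15.3, 13.8 and 15.04 and 6.71, 9.49, 3.73 and 5.71 TPM (log2 change -1.25 ± 0.21, adjusted p = 0.0189). The calls for H2-Eb1 and H2-Aa were lost without old KO batch 1, old WT batch 2, young KO batch 1 or young WT batch 2, at adjusted p of 0.05401 to 0.135. The call for Axl was lost without young KO batch 1 or young WT batch 2, at adjusted p of 0.0622 to 0.102. Adgre1, the macrophage marker F4/80, was under 1 TPM in every library. The count that rose was 0 without old KO batch 1, young KO batch 1 or young WT batch 2, 2 without old WT batch 2 and 7 without young WT batch 1, and 1 and 1 under the coding-gene scalings.

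Of plasma cell, T and NK cell, neutrophil, mast cell and stromal genes, the share called higher was 4.55%, 7.69%, 0%, 5.0% and 17.6%, beside 4.34% of all genes. Of 22 B and plasma cell genes Jchain, which joins secreted immunoglobulins, rose and Igll1 fell. Jchain was at 75.1, 49.4, 0.555 and 0.984 TPM in young and 22.3, 294, 58.9 and 17.5 TPM in old libraries (log2 change 3.12 ± 0.94, adjusted p = 0.0488), and Igkc, the kappa light chain, at 585, 567, 0 and 8.93 and 333, 4207, 1868 and 288 TPM without passing (adjusted p = 0.05702). Their low values were those of the young KO mice, and the highest those of old WT batch 2. Ighd was at 5.51 ± 2.38 and 3.94 ± 1.99 TPM and did not pass (adjusted p = 0.0984). Ms4a1 of B cells stayed under 2 TPM. Of 26 T and NK cell genes 2 rose (Trac and Themis) and 2 fell (Cd4 and Lck), and the kinase Lck went from 111 ± 18.9 to 79.2 ± 15.2 TPM (log2 change -0.63 ± 0.16, adjusted p = 0.0319). The chemokine Ccl5 (3.81 ± 0.619 and 6.64 ± 0.679 TPM, adjusted p = 0.1105) and the receptor Klrb1c (5.87 ± 1.04 and 9.71 ± 2.76 TPM, adjusted p = 0.116) did not pass. In 24 neutrophil genes none rose and the protease Mmp9 fell, from 5.44 ± 3.75 to 1.73 ± 3.07 TPM (log2 change -2.97 ± 0.71, adjusted p = 0.0285), with Cd177 (adjusted p = 0.06296) and the granule protein Ltf (adjusted p = 0.1097) not passing. Neutrophil genes summed to 1210 to 3291 TPM in young and 979 to 2632 TPM in old libraries. The call for Jchain was lost without old KO batch 1, old KO batch 2, old WT batch 2, young KO batch 1, young KO batch 2 or young WT batch 2, at adjusted p of 0.0828 to 0.202. The call for Lck was lost without each library except young WT batch 1, at adjusted p of 0.0596 to 0.133. The call for Mmp9 was lost without old KO batch 1, old KO batch 2, young KO batch 1 or young WT batch 2, at adjusted p of 0.0658 to 0.119.

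In 20 mast cell, basophil and eosinophil genes Fcer1a, the alpha chain of the IgE receptor, rose from 4.35, 2.41, 1.41 and 3.18 TPM to 6.04, 15.5, 7.38 and 24.9 TPM, without overlap (log2 change 2.09 ± 0.47, adjusted p = 0.0258). The proteases Tpsb2 (16.2 ± 18.1 and 4.17 ± 3.79 TPM, adjusted p = 0.127) and Mcpt8 (24.2 ± 4.32 and 53.99 ± 40.5 TPM, adjusted p = 0.145) did not pass. Of 17 stromal and endothelial genes 3 rose, Kdr, the matrix protein Sparc, from 2.29 ± 0.841 to 6.82 ± 4.81 TPM (log2 change 1.43 ± 0.33, adjusted p = 0.0274), and the lipase Lpl, from 3.14 ± 0.7699 to 7.46 ± 2.56 TPM (log2 change 1.16 ± 0.31, adjusted p = 0.0373). The endothelial sialomucin Emcn was at 21.9 ± 7.51 and 13.7 ± 11.1 TPM and did not pass (adjusted p = 0.0509). The calls for Fcer1a and Lpl were lost without old KO batch 1, old KO batch 2, young KO batch 1 or young WT batch 2, at adjusted p of 0.0661 to 0.146. The call for Sparc was lost without old KO batch 1, old KO batch 2, old WT batch 1, young KO batch 1 or young WT batch 2, at adjusted p of 0.0559 to 0.121. Summed stromal levels were 56.3 to 119.6 TPM in young and 63.7 to 106 TPM in old libraries. The part of these other cell types in the LSK results was not tested.

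The genes called over both genotypes were chosen on the average of WT and KO, which fixes most of their signs, and 3558 of the 3563 had the same sign in both. Tested alone, with 2 mice per age, WT gave 22 calls (0.0861% of 25543 genes) and KO also 22 (0.0861%). Of these, 10 were called in both genotypes, and 20 of each 22 were called over both together. Of the shared 10, 9 changed in the same direction, namely Plscr2, Clca3a1, Zg16, Clu, Aldh1a1, Nupr1, Slc16a11, Hnf4a and Gvin1. The other, Ighv7-1, was called lower in old WT and higher in old KO mice. Gvin1 rests on 1 litter, at 3.797 and 3.32 TPM in the young batch 1 mice and 0 TPM in every other library. The WT count was 7 without old WT batch 1, 34 without young KO batch 2, 82 and 98 without old KO batch 1 and 2, and 1107 without young WT batch 1. The KO count was 0 without young KO batch 1, 13 without old WT batch 2, 53 and 126 without old KO batch 1 and 2, 1006 without young KO batch 2, and 1486 and 2768 without young WT batch 1 and 2. Where 1 mouse of a group was left, its spread was taken from the other groups. Plscr2 changed by 3.61 ± 0.30 in WT and 3.60 ± 0.30 in KO on the log2 scale, and Slc16a11 by -1.69 ± 0.24 and -2.16 ± 0.24. Flt3 changed by -0.89 ± 0.21 in WT and -1.11 ± 0.21 in KO. Over the aged stem cell list the median change was 1.34 in WT and 1.63 in KO, and over S phase genes -0.53 and -0.39. The genotype by age interaction was called for 1 of 25543 genes (0.00391%) by edgeR's test and for 10 by DESeq2, with 505 genes at an unadjusted p under 0.05 in edgeR's test. That gene was Ighv7-1, an antibody segment named after its values were seen. It was at 436, 0, 0 and 0 TPM in young and 0.194, 0, 26.02 and 0 TPM in old libraries, so its call rests on single mice. The interaction count was 0 without young KO batch 1 or old WT batch 1, 2 without young KO batch 2, 5 without old WT batch 2, 11 without old KO batch 1 or young WT batch 1 and 15 without old KO batch 2. With 3 residual degrees of freedom, a missed threshold does not show that an age difference is equal in both genotypes.

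**Figure D4:**
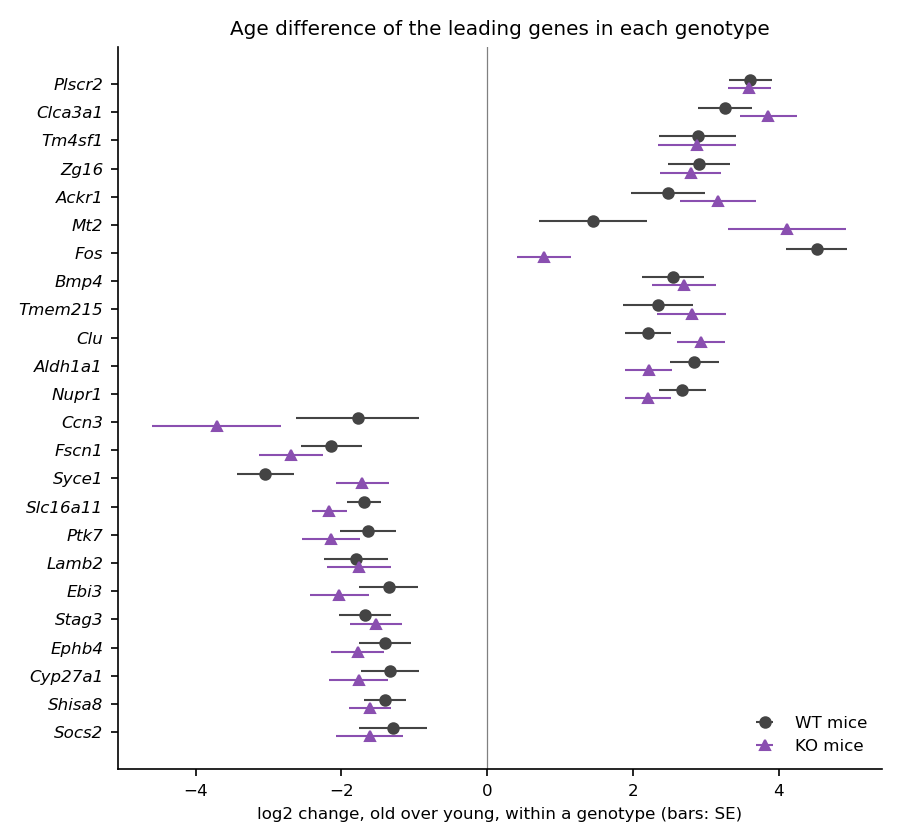
The log2 change with age of the 24 leading genes in WT (circles) and KO mice (triangles), with bars for the SE. All 24 have the same sign in both genotypes, as the rule required, and Fos lies furthest apart, at 4.52 in WT and 0.78 in KO.

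The leading genes were chosen with old and young libraries apart, which fixes their direction within each batch, so only the sizes are described. Within batch 1 and batch 2 in turn, Plscr2 changed by 3.88 and 3.31, Clca3a1 by 3.74 and 3.36, Nupr1 by 2.60 and 2.26 and Aldh1a1 by 2.88 and 2.12 on the log2 scale. Slc16a11 changed by -2.21 and -1.65 and Flt3 by -1.17 and -0.82. Batch 2 holds no litter with Xist RNA, so the values there are free of that sex difference. List medians within batch 1 and batch 2 were 1.65 and 1.503 for aged stem cell genes, -0.52 and -0.49 for S phase genes and -1.79 and 0.11 for mast cell genes. In each batch the ages came from 1 litter each, so age and litter cannot be told apart there.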

How the data were processed

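RNA was measured in sorted LSK cells of 8 mice. Per the submitters' processing notes kallisto, mm10 and DESeq2 were used, with no versions given. The deposited tables give kallisto's estimated counts and TPM per transcript, per the file headers. Here 114200 of 115088 transcripts were matched by identifier to GENCODE vM21 genes (GRCm38), the 888 unmatched ones holding at most 0.47% of a library's counts, and both measures were summed per gene. The deposited estimated counts were rounded to whole numbers and fitted with edgeR 4.0.16 (filterByExpr, minimum count 10, TMM, quasi-likelihood). Age over both genotypes was a term beside genotype and batch, leaving 4 residual degrees of freedom. WT, KO and interaction came from contrasts of the 4 groups with a batch term, leaving 3. The Benjamini-Hochberg threshold was 0.05 over 25543 genes. The procedure was also run on simulated counts without litter, batch, genotype or sex differences, so that run cannot show how these affect the calls. SE is the log2 change over the square root of F. The common dispersion was 0.134, above the counting variance of well expressed genes at these depths. Named genes were the 12 highest and 12 lowest called protein-coding genes of at least 5 TPM, with old and young libraries apart and the same sign in WT and KO, the 3 members of smallest p at that level in each of 31 lists, and Asxl2 and sex-linked genes. Lists and members were chosen with earlier results of these data known. No list test was run. Promoter windows are RefSeq's. Results for a few named genes are not reported here.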

Additional observations from a re-analysis of the deposited data

Results flagged for a closer look

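In groups of 4 libraries, 22 of 242 sets of values had 1 library far from the other 3 by Dixon's ratio at its tabulated critical value, where chance flags about 1 in 20. The values are in TPM unless stated, and no cause was tested.

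Young WT batch 2 was the high library of the young group for 9 genes. It was at 4.96 for Clu (others 2.59 to 2.82), 10.5 for Lamb2 (2.68 to 3.48), 189.5 for Csf3r (101.7 to 110.7), 82.9 for Ect2 (41.2 to 41.8) and 84.5 for Rbl2 (27.5 to 33.6). It was at 86.8 for Mdm2 (49.96 to 53.8), 69.9 for Ddx58 (41.9 to 41.95), 41.2 for Stat2 (17.1 to 19.7) and 28.8 for Ifit2 (11.8 to 13.2). The calls for Ect2, Rbl2, Mdm2, Ddx58, Stat2 and Lamb2 were lost without it.

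Old WT batch 2 was the high library of the old group for Ccn3 at 3.49 (0.194 to 0.558), Shisa8 at 102.9 (74.2 to 78.2), Hbb-bs at 173.4 (2.94 to 13.9) and Hba-a2 at 244.4 (0.229 to 23.1). The same held for Jchain at 294.4 (17.5 to 58.9), Mmp9 at 6.34 (0.118 to 0.351), Cd177 at 11.9 (0.639 to 1.61) and Ltf at 100.2 (0.923 to 9.94). It also had the fewest genes detected among old libraries, 30860 to 4 digits, against 35440 to 36180. The globin Hbb-bt was not among these, and old KO batch 1 held the most of it among old libraries.

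In other libraries Ackr1 was at 1.065 in young KO batch 2 (0.604 to 0.640), H2-Eb1 at 142.1 in young KO batch 2 (45.1 to 56.5), Selp at 41.4 in old WT batch 1 (19.5 to 23.1) and Rbl1 at 26.3 in old KO batch 1 (37.2 to 38.4).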

How the results depend on the processing

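The 3563 age calls over both genotypes became 6735 with DESeq2, 6489 with no filter, 1219 with a 5 TPM filter, 7846 with the length trend over all genes removed, 168 without the batch term and 25 with genes detected as covariate. On log2 TPM, limma called 20 with a pseudocount of 1, 6 with 0.1 and 0 with 1 and no filter. Chosen after the data were seen, the length trend of coding genes gave 851, scaling on coding genes 307 and voom without the litter block 5624. With litter as a replicate block voom gave 11960, and litter sums 7678, both comparing 2 litters with 2. Within batch 2 there were 1879 calls. Without litter 1, 2, 3 or 4 there were 20, 15, 9 and 106. Leaving out 1 library gave 44 to 4935. Counts with the 4-group model, DESeq2-style size factors, the effective length offset and batch 1 alone were within 1.5 times the main one, but batch 1 alone had 2167 higher and 562 lower and shared 1160 genes with the full set. The share of calls higher, 31.1%, was 79.4% there, 45.2% in batch 2, 56.3% with the 5 TPM filter, 53.8% with the litter block, 43.6% for litter sums, 41.0% with DESeq2, 43.9% with no filter, 20.0% with the length trend removed and 84.0% with genes detected as covariate. DESeq2, no filter, the length trend and no batch term gave 393, 1015, 336 and 2 calls in WT, 3548, 2943, 477 and 6 in KO, and 10, 75, 57 and 0 for the interaction. With 1 library out they were 7 to 1107 in WT, 0 to 2768 in KO and 0 to 15 for the interaction. Among named genes, signs turned for genes without a call: Csf3r (0.055) and Tpsb2 (0.24) with genes detected as covariate, Ccl5 (-0.051) and Cox7c (-0.43) with the length trend removed, Cox7c (-0.075) with that of coding genes, and Mcpt8 within batch 1 (-0.14) and without litter 2 (-0.060) or 4 (-0.14). Of called genes, only Rps23 (-0.20), Rps25 (-0.31) and Rps27a (-0.31) turned, all with the length trend over all genes removed. Asxl2, near 0 with age, was at 0.18 with the 5 TPM filter, 0.12 and 0.22 with the coding length trend and coding scaling, 0.19 with genes detected, 0.011 within batch 1, 0.016 and 0.012 without litters 2 and 4, and -0.13 to 0.071 with 1 library out. Apart from the length trends, whose construction removes the trend shown, the cause of these changes was not tested.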

Other observations

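Of the 36 genes that kept their calls without each library in turn, 20 were not chosen by rule, and the following were picked from these after their values were seen. Hnf4a, a nuclear receptor best known from liver and gut (chromosome 2, 163506808 to 163572910), was at 28.2, 38.6, 18.5 and 13.3 TPM in young and 14.1, 7.91, 3.15 and 2.71 TPM in old libraries, in the order WT batch 1, WT batch 2, KO batch 1 and KO batch 2. It fell within each genotype and batch (log2 change -2.16 ± 0.20, adjusted p = 0.00102 by edgeR's test) and passed without 3 of the 4 litters. The integrin chain Itgb5 fell from 58.1, 68.97, 25.8 and 17.8 TPM to 7.91, 29.2, 1.21 and 4.42 TPM (log2 change -2.66 ± 0.45). Thsd1, a thrombospondin-domain membrane protein, fell from 59.7, 62.6, 37.96 and 31.4 TPM to 39.7, 33.5, 12.9 and 12.8 TPM (log2 change -1.12 ± 0.15). In all 3 genes KO mice were lower than WT mice at each age. The phosphatase Ptpn7 fell from 214 ± 36.6 to 121 ± 38.1 TPM (mean ± SD, n = 4).

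Among the higher genes of that set, Gkn3, a gastrokine, was at 0.743, 0.365, 7.33 and 6.46 TPM in young and 3.72, 2.56, 26.3 and 53.98 TPM in old libraries (log2 change 2.45 ± 0.30), and in both ages the KO mice had the most. Gadd45g, a stress-induced growth arrest gene, rose from 6.57, 6.26, 6.12 and 4.62 TPM to 37.2, 20.3, 27.3 and 42.4 TPM (log2 change 2.35 ± 0.25). Muc1, a membrane mucin, rose from 0.645 ± 0.246 to 4.597 ± 1.65 TPM, the complement gene C4b from 0.317 ± 0.278 to 2.02 ± 1.01 TPM and the aminoacylase Aspa from 4.99 ± 1.32 to 23.3 ± 3.95 TPM. Wwtr1 and Tm4sf1, both higher in old cells, lie close together at chromosome 3, 57455649 to 57575910 and chromosome 3, 57285611 to 57301988.

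Of the 20, 3 need separate reading. Gm10925, a pseudogene on chromosome 1, 24613974 to 24614651, was at 1481, 2500, 2234 and 4382 TPM in young and 3515, 5158, 4890 and 7328 TPM in old libraries (log2 change 1.01 ± 0.12). The matched transcripts included 0 genes encoded by the mitochondrial genome, and reads of such genes could match nuclear copies of them, which was not tested. Igkv4-72, an antibody segment, was at 0.6998, 0, 0.286 and 0.513 TPM and 48.1, 77.5, 3.04 and 34.6 TPM. Gvin1, an interferon-inducible GTPase gene, was at 3.797, 0, 3.32 and 0 TPM in young libraries and listed at 0 in all old ones. The young values above 0 were both from batch 1, from 1 litter.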
